A study of Rattus norvegicus with 28 samples.

Results

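The comparison described here is that of imipramine given after traumatic brain injury (TBI) with TBI alone in rat hippocampus, on 6 gene expression arrays of 14, in a series of 28 arrays of gene and microRNA expression. The 3 arrays titled TBI+Imipramine and the 3 titled TBI without a drug were taken by their titles, and each array held the RNA of 1 adult male Sprague-Dawley rat. Both groups had a severe fluid percussion injury, in which a pulse of fluid against the exposed dura deforms the brain, and the whole hippocampus was removed 24 h later. Imipramine was given 1 h after the injury. The labels name no vehicle for the TBI rats, and the study's methods state that rats without an antidepressant received one. The other arrays came from 2 sham-operated rats without drug, 3 injured rats given Prozac (fluoxetine) and 3 given Zoloft (sertraline), and they entered the same fit. Whole hippocampus mixes neurons, glia, vessels and any neighbouring tissue taken with it, so fewer cells of a type and less RNA per cell cannot be told apart.

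Imipramine is a tricyclic antidepressant that blocks the transporters clearing noradrenaline and serotonin from the synapse, and also several histamine, muscarinic, adrenergic and serotonin receptors. In the hours to days after a brain injury, microglia become activated, neutrophils and monocytes enter from the blood, and macrophages take up debris and lipid through scavenger receptors. Activated phagocytes also display protein fragments on major histocompatibility complex (MHC) class II molecules. Injured and surviving neurons meanwhile alter their receptors, channels and neuropeptides.

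All values are centred log2 signals: the array's signal for a probe divided by that array's 75th percentile, as a log2, less the median of the probes kept on that array. Without that last step the median difference between imipramine and TBI arrays was 0.199, and after it the difference was -0.027, so each difference below is relative to the median probe. A probe was called where its adjusted p in the limma fit was under 0.05. On the 6 arrays, 14676 to 18196 of 30367 probes were above background, the lowest number on TBI replicate 1, and pairs of arrays correlated at 0.979 to 0.994 over 17251 probes. The mean level of 18 measured markers of reactive astrocytes was -1.64 and -0.67 on the sham arrays and 1.53 to 2.23 on the TBI arrays, and the dentate gyrus gene C1ql2 and the CA1 gene Fibcd1 were above background on all 6 arrays.

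The slides divided the arrays in the same way as the treatment. Slide 1 held the 3 TBI arrays and Prozac replicate 1, slide 2 held the other 8 drug-treated arrays, and slide 3, scanned on another day, held the sham arrays. No slide held both an imipramine and a TBI array, so no value within a slide exists for this comparison, and slide and treatment are linked through 1 array only. The part of the slides in the differences below was not tested beyond the fits with slide as a block. In those fits, whatever sets Prozac replicate 1 apart from the other Prozac arrays enters each difference.

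After centring, 51 of 17322 probes (0.294%) differed between imipramine and TBI arrays, 45 higher (0.26%) and 6 lower (0.0346%) after imipramine. In all 51 the 2 groups did not overlap, which their selection by p on the same arrays favours. Of all named genes tested, 8.08% had no overlap on the higher side and 14.8% on the lower side. Without adjustment, at p under 0.05, 1301 probes stood higher (7.51%) and 1279 lower (7.38%). The count fell to 9, 10 and 11 when TBI replicate 1, 2 or 3 was left out, and to 2, 0 and 5 without imipramine replicate 1, 2 or 3. Without imipramine replicate 2, where limma called 0, 1595 probes had an unadjusted p under 0.05. A fit with slide as a block, which rests on Prozac replicate 1, called 5 probes and 0 of them were among the 51.

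The probes that were higher after imipramine were in large part not those of known genes. Of the 45, 25 carried only a probe name, out of 1611 such probes kept (1.55%), 10 a predicted RefSeq transcript, 6 an Ensembl transcript and 4 a curated RefSeq transcript, out of 12446 (0.0321%). Their median deviation from the mean of all arrays was -0.87, -0.83 and -0.98 on the TBI arrays and 0.27, 0.31 and 0.36 on the imipramine arrays. It was 0.01 and 0.06 on the Prozac arrays of the second slide, 0.28, 0.11 and 0.27 on the Zoloft arrays and 0.77 and 0.73 on the sham arrays. The TBI arrays were thus low and every array of the other slides was higher, while Prozac replicate 1, on the slide of the TBI arrays, lay at -0.54. In 43 of the 45 probes, the mean of the other 5 arrays of slide 2 lay nearer to imipramine than to TBI, and in 37 of 45 Prozac replicate 1 lay nearer to TBI. The macrophage gene Msr1 and 1 probe without a gene were the exceptions to the first of these counts, 43 of the 45.

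The 6 lower probes had another pattern across the arrays. Their median deviation was 0.47, 0.41 and 0.25 on the TBI arrays and -0.49, -0.43 and -0.56 on the imipramine arrays. On the 6 other injured arrays, of both slides, it lay between -0.08 and 0.07, and on the sham arrays it was 0.25 and 0.3. In 2 of the 6 the other arrays of slide 2 lay nearer to imipramine than to TBI. Both sets were selected by the difference between imipramine and TBI, which favours these 2 groups lying at a distance. For the lower probes the other injured arrays lay between the 2 groups and the sham arrays lay with TBI. For the higher probes the arrays of the other slides lay nearer to imipramine. The 6 were 5 named genes and 1 probe without a name here, which had a log2 signal of 1.55, 1.71 and 1.63 in TBI and 1.11, 1.13 and 1.23 after imipramine.

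**Figure D1:**
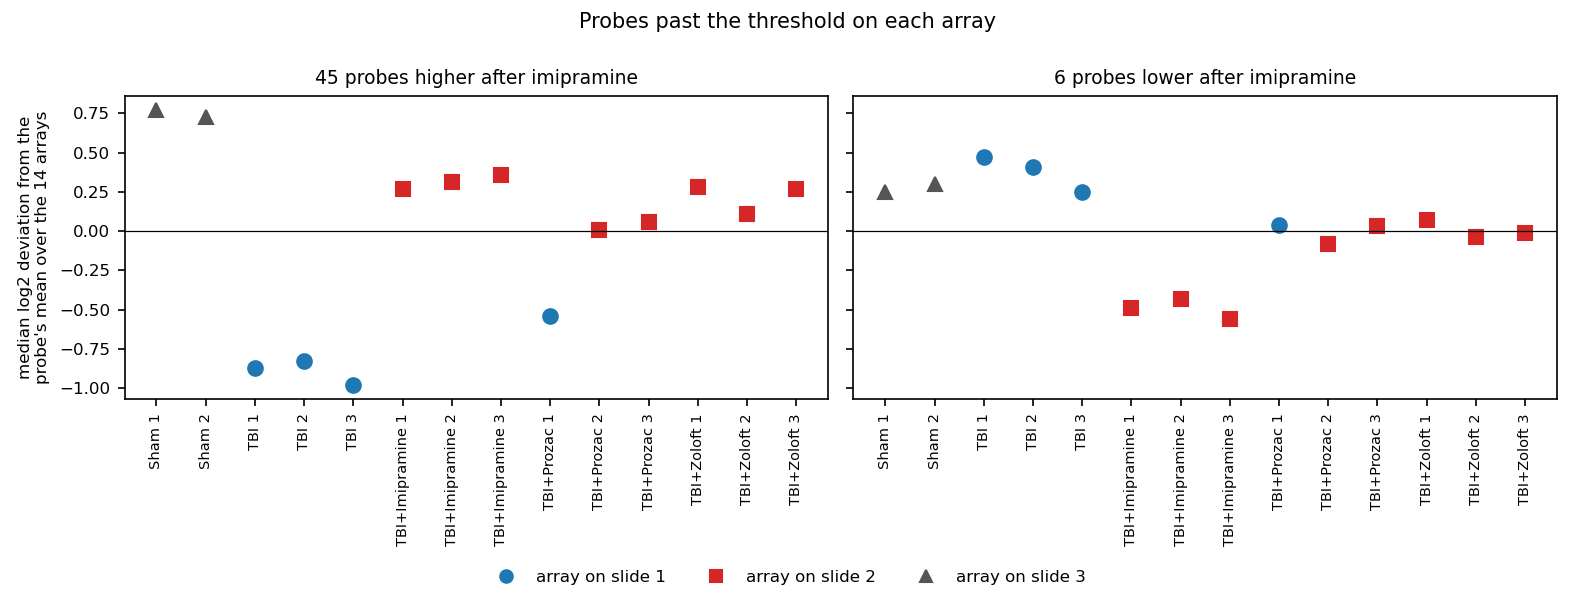
Median deviation from the mean of all arrays (log2 units) over the 45 probes called higher and the 6 called lower after imipramine, by array and slide. For the higher probes the TBI arrays lie between -0.98 and -0.83 and all arrays of the other slides lie above 0, while for the lower probes the imipramine arrays alone lie between -0.56 and -0.43. The selection of these probes favours the distance between TBI and imipramine arrays.

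A called probe was carried by 10 genes, 5 higher and 5 lower. By the probe that stood for each gene, 9 of 10220 genes tested (0.0881%) were called, 4 higher (0.0391%) and 5 lower (0.0489%). The named genes are taken first among those higher after imipramine, then among those lower.

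Msr1 rose after imipramine. It encodes macrophage scavenger receptor A, which binds modified lipoproteins and debris. Its log2 signal was -1.31, -2.67 and -2.5 in the TBI rats and -0.36, -0.09 and -0.57 after imipramine, and the groups did not overlap. The means were -2.16 ± 0.743 and -0.34 ± 0.239 (SD, n = 3 each), a log2 difference of 1.82 ± 0.302 (SE; adjusted p = 0.041), which is 3.53-fold. The gene was not above background on either sham array and stood 3.8 log2 units higher in TBI than in sham rats (adjusted p = 7.4e-05). On the Prozac arrays it was -1.79, -2.16 and -2.15 and on the Zoloft arrays -1.3, -1.29 and -1.46, so each of the 3 imipramine arrays lay above every other array. The differences of imipramine from Zoloft (1.01 ± 0.302, adjusted p = 0.099) and from Prozac (1.7 ± 0.302, adjusted p = 0.29) did not pass the threshold, and they use the same 3 imipramine arrays. The difference from TBI was 2.19 with slide as a block (adjusted p = 0.64). It passed the threshold without TBI replicate 1 (adjusted p = 0.0038) and missed it without each of the other 5 arrays (adjusted p = 0.086 to 0.17).

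Rchy1, Arfgef2 and Ppp1r14bl also rose. Rchy1 encodes a ubiquitin ligase that targets p53, and its log2 signal was -2.61, -2.73 and -2.7 in TBI and -1.65, -1.38 and -1.37 after imipramine. The difference was 1.22 ± 0.214 (adjusted p = 0.048), it was 0.27 with slide as a block (adjusted p = 1), and Prozac replicate 1 at -2.45 lay with the TBI arrays while the Zoloft arrays at -1.29, -1.54 and -1.5 lay with imipramine. Arfgef2, an exchange factor for ARF GTPases in vesicle traffic from the Golgi, went from -0.42, -0.51 and -0.42 to 0.4, 0.33 and 0.15, a difference of 0.74 ± 0.125 (adjusted p = 0.041). Its Zoloft arrays were at 0.27, 0.5 and 0.67 and its Prozac arrays at -0.58, -0.47 and -0.36, so Prozac arrays of both slides were as low as TBI. Ppp1r14bl, named in RefSeq as similar to a phosphatase inhibitor gene, was above background on no TBI array and on all 3 imipramine arrays, at -4.55, -4.32 and -4.63 against -3.12, -3.13 and -2.96. Its rise was at least 1.94-fold, taking the lowest signal above background as the limit for TBI (adjusted p = 0.014). With the normexp background its difference was 0.35 and did not pass the threshold (limma, adjusted p = 0.25). Rpl17l5, a copy of a ribosomal protein gene, had 1 probe that was higher after imipramine (1.39 ± 0.185, adjusted p = 0.016) and another at 3.7, 3.67 and 3.6 in TBI and 3.7, 3.61 and 3.99 after imipramine (0.11 ± 0.152, adjusted p = 0.78). The 2 probes of Rpl17l5 disagree, and its many near-identical copies can share signal.

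**Figure D2:**
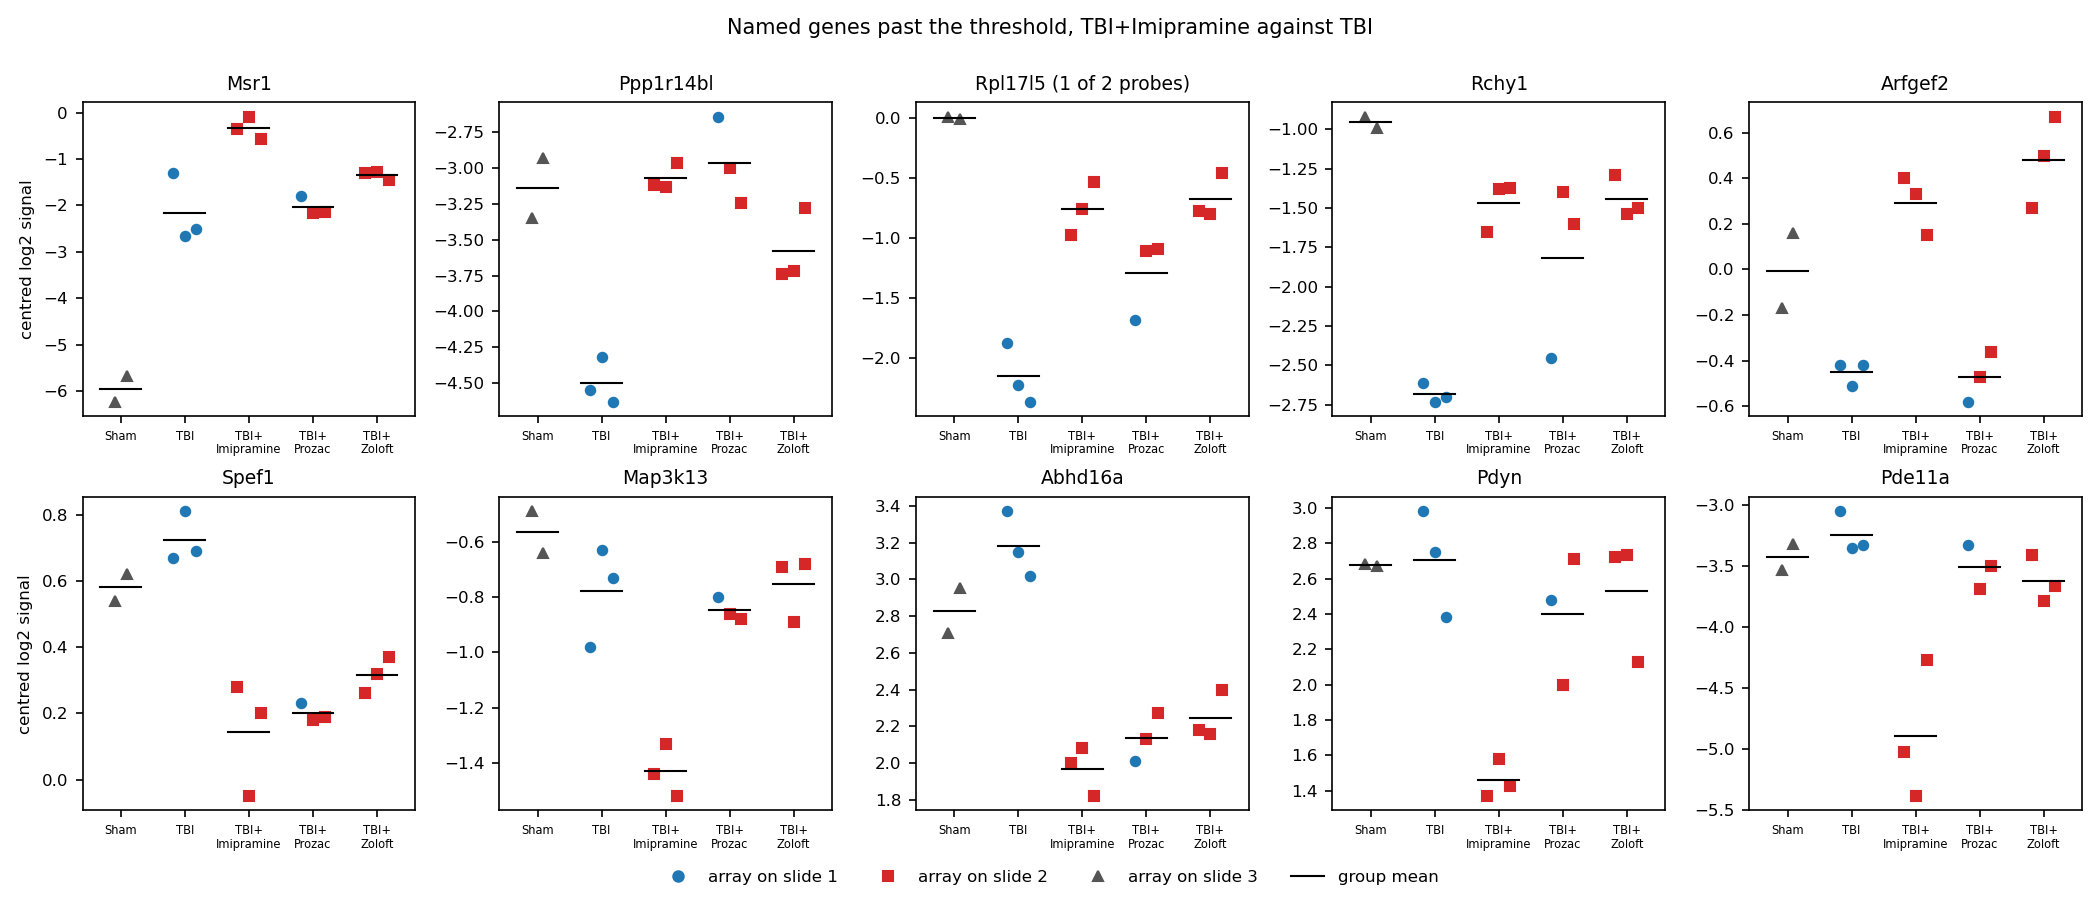
Centred log2 signal of the genes with a called probe on each array by group, with points for arrays, marked by slide, and a line at the group mean. Imipramine and TBI arrays do not overlap in any panel, which the selection of these genes favours. In Msr1, Pdyn, Map3k13 and Pde11a the imipramine arrays lie apart from every other injured array.

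Pdyn fell after imipramine. It encodes prodynorphin, the precursor of the dynorphin opioid peptides, which the granule cells of the dentate gyrus make. Its log2 signal was 2.98, 2.75 and 2.38 in TBI and 1.37, 1.58 and 1.43 after imipramine. The means of 2.7 ± 0.301 and 1.46 ± 0.108 (SD, n = 3 each) differed by -1.24 ± 0.213 (adjusted p = 0.042), which is 2.37-fold. The sham arrays at 2.68 and 2.67, the Prozac arrays at 2.48, 2 and 2.71 and the Zoloft arrays at 2.72, 2.73 and 2.13 all lay above every imipramine array. Imipramine stood -1.07 from Zoloft (adjusted p = 0.057) and -0.94 from Prozac (adjusted p = 0.5), neither past the threshold. The difference from TBI was -1.12 with slide as a block (adjusted p = 0.89), and with any 1 of the 6 arrays left out the adjusted p was 0.076 to 0.17.

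Abhd16a fell with the smallest adjusted p of the named genes. It encodes a lipase that makes lysophosphatidylserine, a signalling lipid of immune cells. Its log2 signal was 3.37, 3.15 and 3.02 in TBI and 2, 2.08 and 1.82 after imipramine, a difference of -1.22 ± 0.124 (adjusted p = 0.0078). It also stood low after the other drugs, at 2.01, 2.13 and 2.27 after Prozac and 2.18, 2.16 and 2.4 after Zoloft, with the sham arrays at 2.71 and 2.95. Prozac replicate 1, on the TBI slide, was the lowest of the Prozac arrays. The difference was -1.4 with slide as a block (adjusted p = 0.078), and it missed the threshold among the arrays left out only without imipramine replicate 2 (adjusted p = 0.054).

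Map3k13, Spef1 and Pde11a fell as well. Map3k13 encodes leucine zipper kinase, an upstream kinase of the JNK pathway in axon injury, and went from -0.98, -0.63 and -0.73 to -1.44, -1.33 and -1.52 (-0.65 ± 0.107, adjusted p = 0.039). The Prozac and Zoloft arrays, at -0.89 to -0.68, lay with TBI, and Map3k13 was the 1 gene among those named here that also passed the threshold against Zoloft (-0.67, adjusted p = 0.042). Spef1, a microtubule protein of motile cilia, went from 0.67, 0.81 and 0.69 to 0.28, -0.05 and 0.2 (-0.58 ± 0.0939, adjusted p = 0.039), and the Prozac arrays at 0.23, 0.18 and 0.19 and the Zoloft arrays at 0.26, 0.32 and 0.37 lay with imipramine. Pde11a, a phosphodiesterase of cyclic AMP and cyclic GMP that is concentrated in the hippocampus, was named after its values were seen: it was above background on 2 TBI arrays and no imipramine array. Its log2 signal was -3.05, -3.35 and -3.33 in TBI and -5.03, -5.39 and -4.27 after imipramine (adjusted p = 0.021). The imipramine arrays lay below the Prozac arrays at -3.69 to -3.33 and the Zoloft arrays at -3.79 to -3.41. Against the lowest signal above background the fall was 2.78-fold, and 1.65-fold with the normexp background. A TBI array not above background entered that mean, so these values are not strict lower bounds. None of the 10 called genes was past the threshold with slide as a block.

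Other genes did not pass the threshold, and their values are given as measured. Among those higher on every imipramine array, Abca1, which exports cholesterol from macrophages and glia, was -2.52, -2.88 and -1.94 in TBI and -1.47, -1.71 and -1.42 after imipramine (0.92 ± 0.29, adjusted p = 0.17). Parvg, a parvin of blood cells, stood 0.75 higher (adjusted p = 0.18), Mark4, a microtubule affinity kinase, 0.97 (adjusted p = 0.076), Snx24, a sorting nexin, 0.91 (adjusted p = 0.066), Slc66a3 0.88 (adjusted p = 0.15) and Ngdn, a neuronal translation regulator, 0.78 (adjusted p = 0.067). Cox6c-ps1, a processed copy of a cytochrome oxidase subunit gene, stood 1.48 higher (adjusted p = 0.12), and this turned to -0.17 with slide as a block. Among those lower on every imipramine array, Slc1a1, the neuronal glutamate transporter EAAC1, was -0.2, -0.43 and 0.19 in TBI and -1, -1.2 and -1.14 after imipramine (-0.96 ± 0.236, adjusted p = 0.099). Negr1, a neuronal adhesion protein associated with depression in human genetics, stood at -1.2 (adjusted p = 0.15), Frzb, a secreted Wnt inhibitor, at -1.13 (adjusted p = 0.099), Tmprss7, a transmembrane protease, at -1.13 (adjusted p = 0.13), Dusp19, a phosphatase of MAP kinase signalling, at -1.04 (adjusted p = 0.15) and C10h17orf75 at -1.78 (adjusted p = 0.098). Klra17, Dpep2 and Sptb had been named in earlier work on these arrays. Klra17, a lectin-like receptor gene, was above background on no TBI array and on every imipramine array (at least 2.09-fold brighter, adjusted p = 0.089), as was Dpep2, a leukotriene dipeptidase of macrophages (at least 2.44-fold, adjusted p = 0.11). Sptb, the spectrin of red blood cells and neurons, was above background on every TBI array and on no imipramine array (at least 3.46-fold dimmer, adjusted p = 0.067), and its bound was 2.29-fold without TBI replicate 1. With the normexp background the bounds were 1.28-fold for Klra17, 1.31-fold for Dpep2 and 1.66-fold for Sptb.

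Genes of cell types and pathways were then read as lists, each by its counts and its median beside those of all 10220 genes, whose median difference was -0.05. Of all genes, 41.1% were positive and 58.9% negative. An unadjusted p under 0.05 was held by 4.58% of all genes on the higher side and by 8.32% on the lower side, and in 8.08% all imipramine arrays lay above all TBI arrays and in 14.8% below. Msr1 and Pdyn were the list genes past the threshold, and 96 list genes had an unadjusted p under 0.05.

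Genes of macrophages and monocytes stood higher after imipramine. Of 18 on the list, 13 were tested, with a median difference of 0.55, 11 were positive, Msr1 was called and 4 were higher at an unadjusted p under 0.05. Cd36, a receptor for oxidised lipids, was -1.76, -4.15 and -2.09 in TBI and -0.63, -0.38 and -1.39 after imipramine (1.87 ± 0.66, adjusted p = 0.22). Cd68, a lysosomal protein of phagocytes, was 0.25, -1.06 and -1.23 and then 0.65, 0.69 and -0.23 (1.05 ± 0.43, adjusted p = 0.29). Gpnmb, a glycoprotein of lipid-laden macrophages, was 3.69, 3.1 and 2.65 and then 4.02, 3.91 and 3.61 (0.69 ± 0.28, adjusted p = 0.28), and lysozyme Lyz2 stood 0.78 higher (adjusted p = 0.34). In each of these TBI replicate 1 was the highest of the TBI arrays and imipramine replicate 3 the lowest of the imipramine arrays, and the groups overlapped in Cd68, Gpnmb and Lyz2. Spp1 (-0.68) and Lyve1 (-0.27), the latter a gene of resident border macrophages, were the members below 0, and Lyve1 turned to 0.51 with slide as a block. These members other than Msr1 were named after their values were seen.

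The mean level of the macrophage list was 0.69, 0.24 and -0.11 on the TBI arrays and 1, 0.96 and 0.54 on the imipramine arrays, against -2.32 and -1.77 on the sham arrays. TBI replicate 1 thus lay above imipramine replicate 3. The Prozac arrays were at -0.1, -0.14 and 0.47 and the Zoloft arrays at 0.16, -0.1 and 0.52, so imipramine replicates 1 and 2 lay above all arrays without imipramine. The median of the list was 0.4 with slide as a block, while the difference was 1.17 for Cd36, 0.4 for Gpnmb, 0.04 for Cd68 and -0.16 for Lyz2. Microglial genes did not share this shift: 16 were tested, their median was -0.12 and 12 were negative, among them P2ry12 (-0.41) and Tmem119 (-0.26), both markers of resting microglia, while Itgam stood at 0.44. The mean level of the microglial list ran from 1.46 to 1.71 in TBI and 1.49 to 1.58 after imipramine.

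Antigen presentation genes stood higher in 12 of 16 tested, with a median of 0.28, 5 higher at an unadjusted p under 0.05 and none called. Cd74, the chaperone of MHC class II, was 2.23, 0.74 and 1.63 in TBI and 2.81, 3.1 and 1.8 after imipramine (1.03 ± 0.443, adjusted p = 0.31). The class II chain gene RT1-Da was 0.63, -0.73 and 0.44 and then 1.58, 1.9 and 0.36 (1.16 ± 0.496, adjusted p = 0.31), RT1-Bb was -2.7, -3.96 and -1.79 and then -1.3, -1.5 and -2.26 (1.13 ± 0.445, adjusted p = 0.27), and RT1-Db1 stood 0.85 higher (adjusted p = 0.34). In all of these imipramine replicates 1 and 2 were above every TBI array and replicate 3 was among them. With slide as a block the differences were 0.43 for Cd74, 0.26 for RT1-Da, 0.54 for RT1-Bb and 0.2 for RT1-Db1. A second probe of RT1-Bb stood at -0.26 (adjusted p = 0.96), on the other side. It was above background on no TBI array and on 1 imipramine array. B2m, the light chain of MHC class I, was 3.75, 3.66 and 3.7 in TBI and 4.05, 4.37 and 4 after imipramine (0.44 ± 0.108, adjusted p = 0.1), without overlap. Psmb10, an immunoproteasome subunit, was 3.26, 3.13 and 3.32 and then 3.34, 3.5 and 3.67 (0.27, adjusted p = 0.25), while the class I gene RT1-A2 stood at -0.41, and at 0.75 with slide as a block. RT1-Da, RT1-Db1 and Cd74 were named after their values were seen, and class I and class II chains are encoded by families of similar genes whose probes can share signal.

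Promoters of class II genes are known for the X and Y boxes, at which the regulatory factors bound by the transactivator CIITA assemble. Those of 3 genes are shown because the 3 class II chain genes above had like differences in the fit without a block for slide. This holds for the probe that stood for each gene. Searched on both strands in the 250 bases before each start in the RefSeq promoters of build GRCr8, the X box core (AG, any 2 bases, AC, any base, GATG) was in 252 of 33469 promoters (0.753%), the Y box CTGATTGG in 1068 (3.19%) and both in 7 (0.0209%). RT1-Da (chr20:4515320-4515382, plus strand), RT1-Db1 (chr20:4560226-4560287, minus strand) and RT1-Bb (chr20:4604163-4604224, minus strand) were among the 7, and the stretch around the motifs is printed 5′ to 3′ with both in capitals.
RT1-Da: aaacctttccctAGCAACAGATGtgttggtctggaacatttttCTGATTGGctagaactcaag
RT1-Db1: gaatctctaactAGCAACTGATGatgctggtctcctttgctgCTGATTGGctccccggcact
RT1-Bb: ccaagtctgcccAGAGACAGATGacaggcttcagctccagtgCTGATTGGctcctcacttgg
The gap between the motifs was 20 bases in RT1-Da and 19 in the other two, and the Y box began 52 to 83 bases before the start. These letters of the X box core were not found in the same window of Cd74, B2m or Psmb10, nor in that of the class II genes RT1-Ba, which held the Y box letters alone, and RT1-DMa, which held neither. A match describes the sequence and was not measured as a binding site here.

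**Figure D3:**
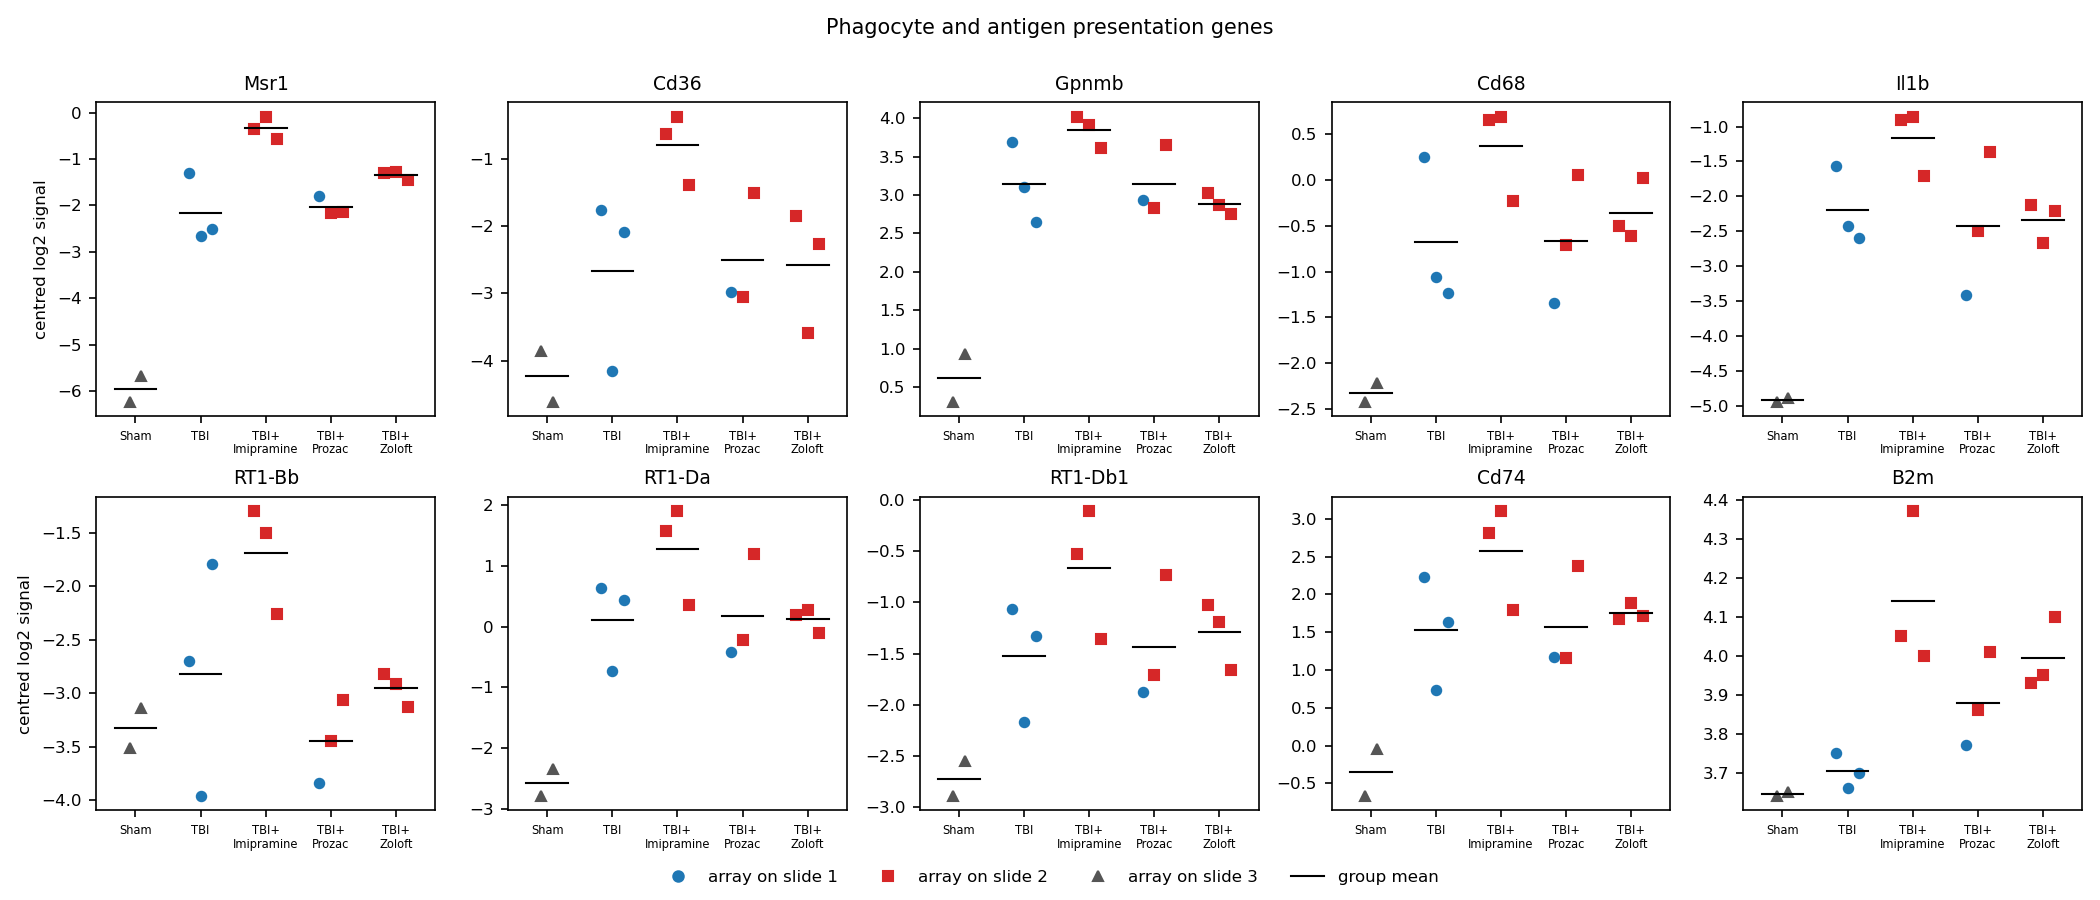
Centred log2 signal of genes of phagocytes and antigen presentation on each array by group, with points for arrays, marked by slide, and a line at the group mean. Imipramine replicates 1 and 2 lie above most arrays, imipramine replicate 3 lies lower, and the sham arrays lie below the injured arrays in most panels.

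Chemokines, which draw leukocytes into tissue, stood higher in 15 of 18 tested (median 0.42), with none called and 1 higher at an unadjusted p under 0.05. That gene was the receptor Ccr1, at -4.13, -3.69 and -4.94 in TBI and -2.95, -2.62 and -3.44 after imipramine (1.25 ± 0.487, adjusted p = 0.26), without overlap, although above background on only 1 TBI array. The monocyte attractants Ccl2 (0.84), Ccl7 (0.9) and Ccl12 (1.01) were on the same side. Cxcl12 (-0.92, and -0.2 by a second probe) and Cx3cl1 (-0.38), which neurons and vessels make, were on the other. Cytokine genes had a median of 0.05 over 15 tested, 2 of them with an unadjusted p under 0.05 in each direction. Il1b was -1.57, -2.42 and -2.6 in TBI and -0.91, -0.86 and -1.71 after imipramine (1.04 ± 0.447, adjusted p = 0.31), and Tnfrsf1b stood at 0.64 (adjusted p = 0.25). Il1a was above background on 1 TBI array and no imipramine array. Its means were -4.14 in TBI and -4.98 after imipramine (adjusted p = 0.14), near background, so its fall has no lower bound. With slide as a block the difference of Il1b was -0.44, and that of the chemokine list's median 0.38. Complement genes showed no common direction (17 tested, median -0.14, and 0.08 with slide as a block): the receptor C5ar1 stood at 0.79 (adjusted p = 0.3) and properdin, Cfp, at 0.47, while C1qa (-0.36, and 0.14 with slide as a block), C1qb (-0.33), C3 (-0.4) and the complement inhibitor gene Cd55 (-0.58, adjusted p = 0.16) were below 0.

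Neutrophil genes had a median of 0.23 over 6 tested, with none at an unadjusted p under 0.05, and their mean level was 0.68, 0.8 and -0.42 in TBI and 0.39, 1.06 and 0.5 after imipramine, which overlap. Of 14 lymphocyte and natural killer genes, 3 were tested, and Cd3d of the T cell receptor stood 0.44 higher (adjusted p = 0.23). The matrix and proteolysis list had a median of 0.11 over 21 tested, with macrophage elastase Mmp12 at -1.62, -6.58 and -3.24 in TBI and -1.41, -0.61 and -1.49 after imipramine (2.64 ± 1.28, adjusted p = 0.36), wide in TBI and without overlap. Anpep, an aminopeptidase of pericytes and myeloid cells, stood 1.82 higher (adjusted p = 0.22), and Bcl2a1, a survival gene of leukocytes, 0.93 (adjusted p = 0.28). Interferon-stimulated genes stood at a median of -0.02 over 23 tested, with none at an unadjusted p under 0.05.

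Choroid plexus genes varied between rats more than between the groups. The choroid plexus makes cerebrospinal fluid inside the ventricles next to the hippocampus and can be taken along in dissection. All 8 tested of 18 were positive (median 1.66), none was called and none had an unadjusted p under 0.05. Ttr, the transthyretin gene that marks this epithelium, was 1.69, 2.97 and 6.83 in TBI and 8.51, 8.54 and 2.83 after imipramine (2.79 ± 2.74, adjusted p = 0.67). Folr1, the folate receptor, was -2.36, -2.44 and -1.26 and then 2.08, 2.22 and -2.27 (2.7 ± 1.49), and the water channel gene Aqp1 was -4.76, -3.96 and -0.66 and then 0.77, 0.87 and -4.5 (2.17 ± 1.86). The differences of the others ran from 0.37 for Igfbp2 to 1.69 for Enpp2, with Steap1, Trpv4 and Calml4 at 1.62, 1.27 and 0.99. A block for slide moved the median of the list to 3.82, Ttr to 11.81 and Folr1 to 6.64. These values take in Prozac replicate 1, itself high in these genes, so they do not show a larger difference between imipramine and TBI. The mean level of the list was -0.7, -0.23 and 0.86 in TBI and 2.61, 2.87 and -0.44 after imipramine, and it was also high on Prozac replicate 1 (2.06) and Zoloft replicates 1 and 2 (1.85 and 2.73). Imipramine replicates 1 and 2, which held the high macrophage and class II values, were thus also the imipramine arrays with choroid plexus RNA. On Prozac replicate 1 and Zoloft replicates 1 and 2, where the list was also high, Msr1 was at -1.79, -1.3 and -1.29. The part of choroid plexus RNA in the values of Msr1 and in the other results was not tested.

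**Figure D4:**
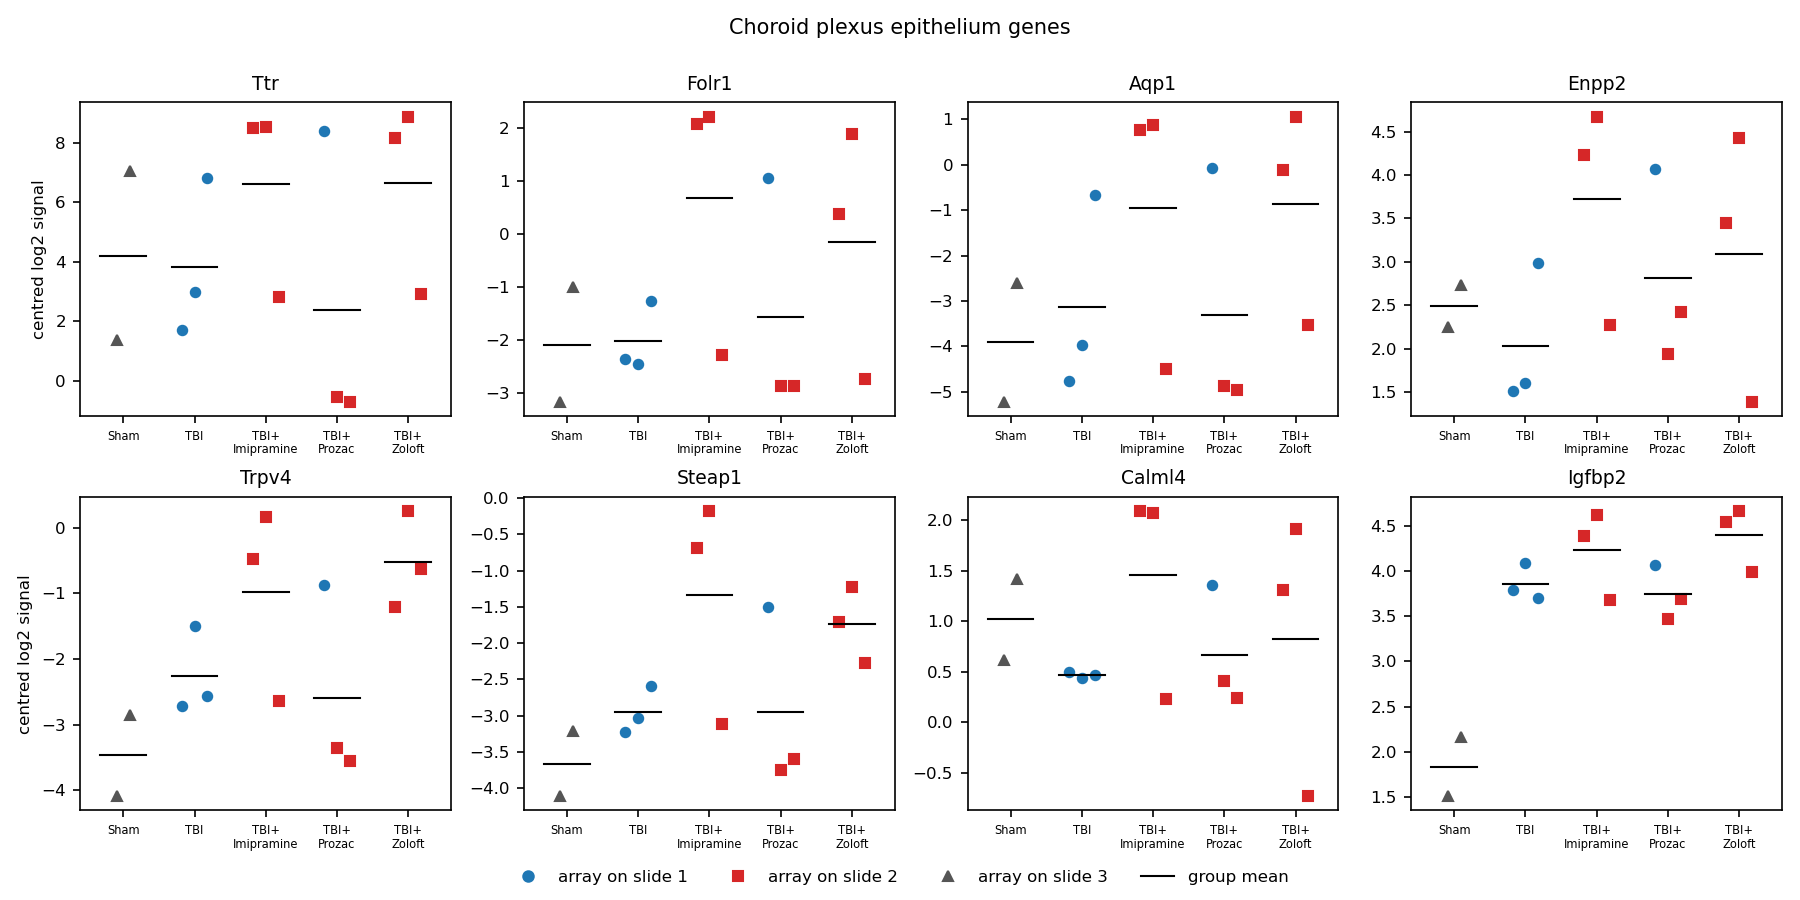
Centred log2 signal of the choroid plexus genes tested on each array by group. Ttr spans 1.69 to 6.83 in TBI and 2.83 to 8.54 after imipramine, and it is also high on 1 sham array (7.05), Prozac replicate 1 (8.39) and Zoloft replicates 1 and 2 (8.17 and 8.88).

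The ependyma, the ciliated lining of the ventricles, stood higher in 9 of 10 tested genes (median 0.46, and 0.91 with slide as a block), 2 of them at an unadjusted p under 0.05 and none called. Cfap126, a cilium protein, was 0.14, -0.23 and -0.52 in TBI and 1.69, 1.63 and 0.33 after imipramine (1.42 ± 0.528, adjusted p = 0.24), and Enkur (0.51, adjusted p = 0.32) and Tekt1 (0.63, adjusted p = 0.34), also of cilia, had their highest values on imipramine replicates 1 and 2. Spef1, named above as lower after imipramine, is also a ciliary gene and moved against these. Fibroblast and meningeal genes stood at a median of 0.06 over 11 tested and red blood cell genes at 0.08 over 7 (0.86 and 0.66 with slide as a block), with none at an unadjusted p under 0.05.

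Neuronal lists lay below 0, by little. Over 11 general neuronal genes the median was -0.19, with 3 lower at an unadjusted p under 0.05 (Stmn2, Map2 and Nefm, of the cytoskeleton of neurons) and none called, and the difference of Stmn2 was 0.04 without centring. Interneuron genes had a median of -0.25 and 10 of 11 were negative, and Sst at 0.31 was the exception (-0.11 with slide as a block). Of 9 hippocampal subfield genes (median -0.2), Fibcd1, a CA1 gene, was 2.81, 2.85 and 2.57 in TBI and 2.36, 2.05 and 2.27 after imipramine (-0.51 ± 0.139, adjusted p = 0.13), and C1ql2, a synaptic organiser of dentate granule cells, was 2.25, 1.92 and 1.44 and then 0.52, 0.52 and 1.8 (-0.92 ± 0.34, adjusted p = 0.24). Fibcd1 did not overlap between the groups, and C1ql2 was low on imipramine replicates 1 and 2 alone. Striatal genes, which mark neighbouring tissue but are in part also hippocampal, were negative in all 7 tested (median -0.55), and the thalamic list stood at -0.2 over 6. The striatal median was -0.11 and the thalamic one 0.13 with slide as a block.

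Among neuropeptides, 21 genes were tested with a median of -0.02, and Pdyn was the call. Penk, the precursor of the enkephalins, was 0.23, 0.92 and 1.11 in TBI and -0.44, -0.25 and 0.25 after imipramine (-0.9 ± 0.321, adjusted p = 0.23). Pdyn and Penk thus stood lower, Penk without passing the threshold. Penk is also on the striatal list, which was negative in all 7 genes tested (median -0.55). Galanin, Gal, a peptide induced by injury, was 2.24, 2.04 and 1.36 and then 2.63, 2.72 and 2.1 (0.61 ± 0.275, adjusted p = 0.33), on the other side. Trh, thyrotropin-releasing hormone, ran from -2.26 to -0.55 in TBI and from -1.14 to 2.52 after imipramine (2.25 ± 1.23, adjusted p = 0.42) and from -1.87 to 3.54 on the Zoloft arrays, so it varied within groups as much as between them.

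Receptors and channels of neurons were mostly lower, each by little. Of 22 glutamate receptor genes 18 were negative (median -0.2) and 3 were lower at an unadjusted p under 0.05. These were the AMPA receptor genes Gria1, at 0.82, 0.66 and 0.98 in TBI and 0.52, 0.5 and 0.33 after imipramine (-0.37 ± 0.145, adjusted p = 0.27), and Gria4 (-0.62, adjusted p = 0.25), and the presynaptic receptor gene Grm2 (-0.7, adjusted p = 0.28). Of 16 GABA genes 13 were negative (median -0.21), with 3 at an unadjusted p under 0.05: Gabrb1 and Gabrd of the GABA-A receptor and Abat, which breaks GABA down. Of 32 channel genes 27 were negative (median -0.16) and 4 were lower at an unadjusted p under 0.05. The calcium channel gene Cacna1e was -1.09, -0.92 and -0.65 in TBI and -1.53, -1.59 and -1.36 after imipramine (-0.61 ± 0.15, adjusted p = 0.099), without overlap, and the calcium-activated potassium channel genes Kcnma1 (-0.4) and Kcnn3 (-0.77, adjusted p = 0.25) stood on the same side. None of these lists held a call. The medians of the glutamate receptor and channel lists were -0.24 and -0.18 with slide as a block.

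The direct targets of imipramine were read gene by gene. Slc6a4, the serotonin transporter, and the receptor genes Hrh1, Chrm2, Chrm5, Adra1a and Htr2a were on the array but below the filter on dim probes, and the cell bodies that make the transporters lie in the brainstem. Slc6a2, the noradrenaline transporter, was -2.66, -2.4 and -2.75 in TBI and -2.84, -2.81 and -2.64 after imipramine (-0.16 ± 0.184, adjusted p = 0.72), and the sign turned without centring (0.06) and with slide as a block (0.42). Chrm3, a muscarinic acetylcholine receptor gene, was 1.92, 2.07 and 2.14 and then 1.83, 1.6 and 1.71 (-0.33 ± 0.0977, adjusted p = 0.15), and Chrm4, another, was 1.18, 1.37 and 1.1 and then 0.72, 0.44 and 0.91 (-0.53 ± 0.149, adjusted p = 0.14). In both the imipramine arrays lay below every TBI array. Chrm1 stood at 0.32 (-0.18 with the normexp background), Adra1b at -0.38, Adra1d at 0.37 and Htr2c at 0.38, with adjusted p from 0.55 to 0.78. In the wider list of monoamine genes, with 20 tested of 37 and a median of -0.15, the histamine autoreceptor gene Hrh3 was 2.49, 2.76 and 2.87 in TBI and 1.74, 1.9 and 2.3 after imipramine (-0.72 ± 0.183, adjusted p = 0.11) by 1 probe and -0.36 by the other, and Adra2b stood 0.45 higher (adjusted p = 0.24). None of the list was called.

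**Figure D5:**
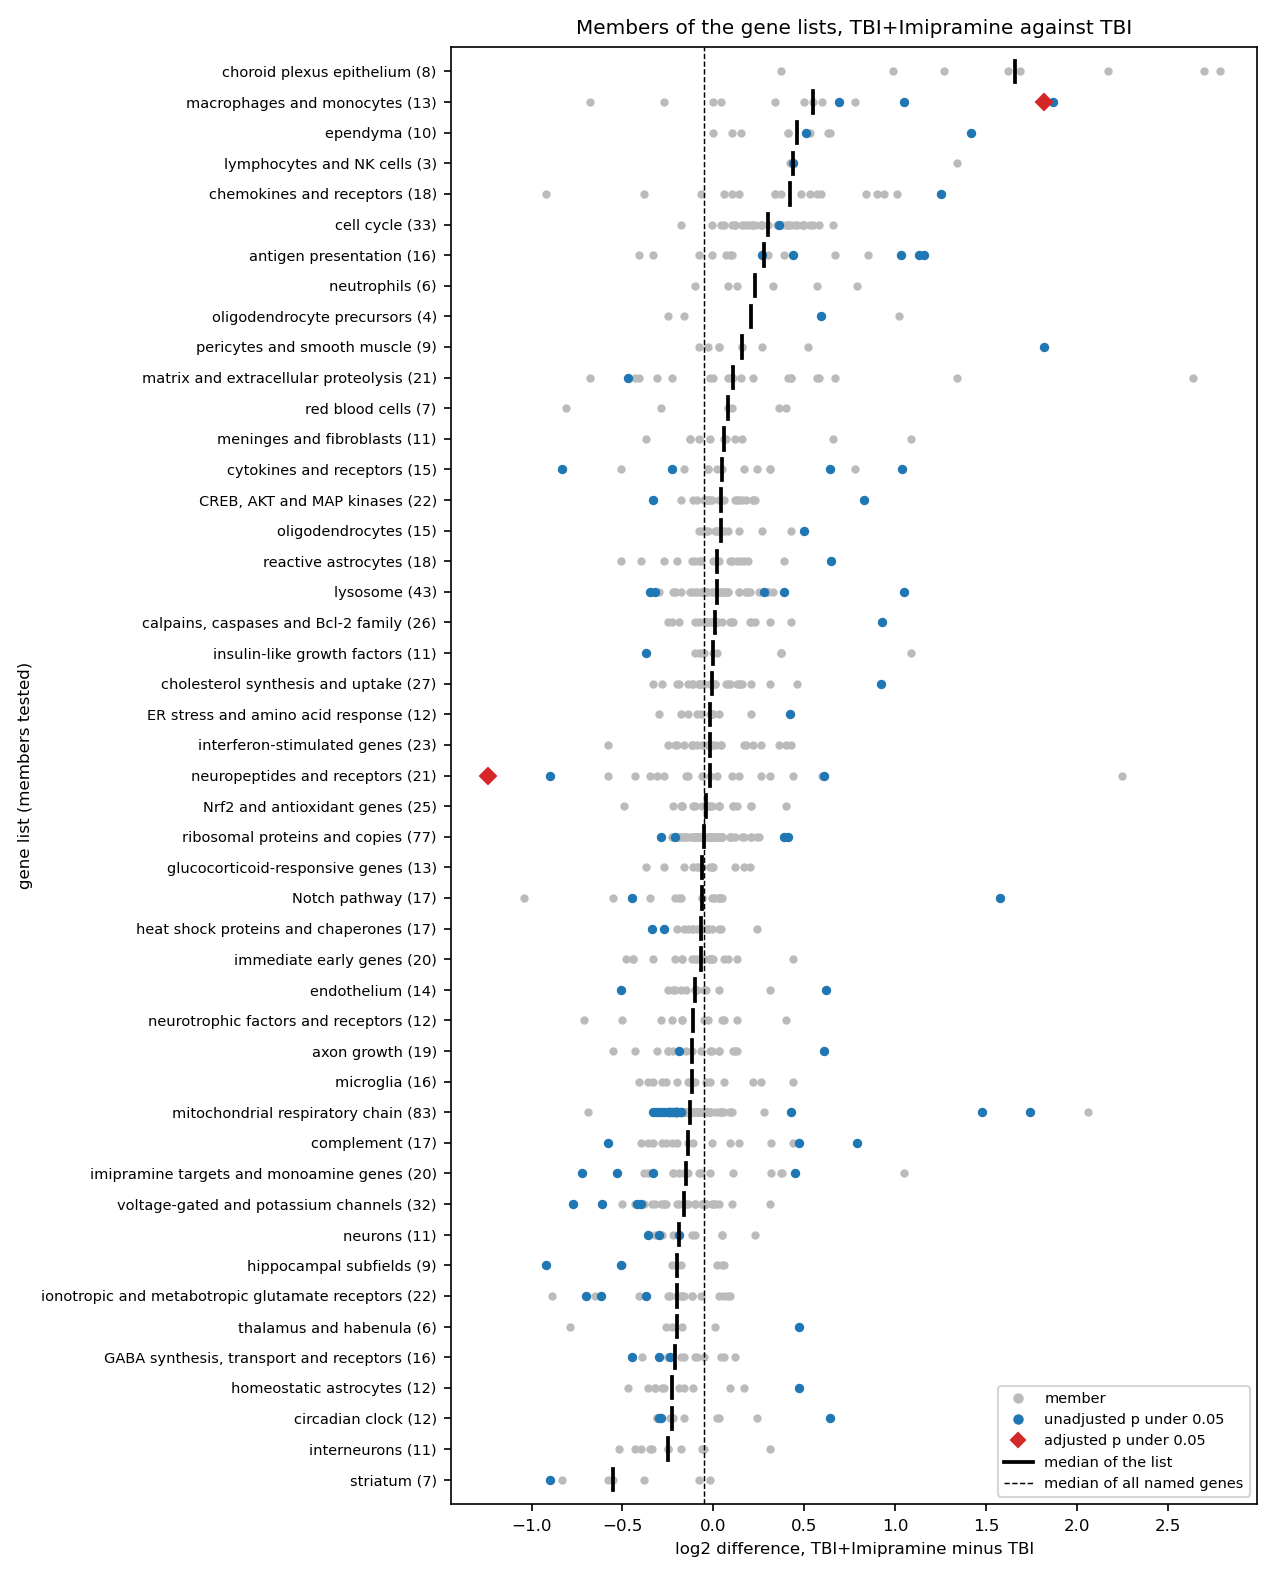
Median log2 difference of imipramine from TBI for each gene list, with the differences of single genes as points and the median over all genes tested as a line. Choroid plexus, macrophage, ependymal, lymphocyte and chemokine lists lie highest and striatal, interneuron, clock and homeostatic astrocyte lists lowest, and the single genes of most lists spread across the line, while all points of the choroid plexus, lymphocyte and ependymal lists lie above it.

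Cell division genes stood higher together by little: 31 of 33 were positive (median 0.3), 12 had every imipramine array above every TBI array, 1 of 33 (3.03%) was higher at an unadjusted p under 0.05 and none was called. Foxm1, a transcription factor of mitosis, was -2.01, -2.28 and -2.47 in TBI and -1.94, -1.93 and -1.79 after imipramine (0.36 ± 0.153, adjusted p = 0.3), and with slide as a block its difference was -0.05 and the median of the list -0.07. Subunits of the mitochondrial respiratory chain stood lower by less, with 70 of 83 negative (median -0.13), 20 lower and 3 higher at an unadjusted p under 0.05 and none called. Ndufa5 of complex I was 5.51, 5.6 and 5.52 in TBI and 5.22, 5.26 and 5.27 after imipramine (-0.3 ± 0.0772, adjusted p = 0.11), while the 3 on the other side were Sdhc of complex II (0.43, adjusted p = 0.11), Cox6c-ps1 and Cox7c, a cytochrome oxidase subunit gene (1.74, and -0.49 with slide as a block). These chain genes are bright, and the median difference of all probes went from 0.124 in the dimmest of 5 equal bins by level to -0.087 in the brightest. Under quantile normalization the median of the chain genes was -0.05, beside -0.03 for all genes. Ribosomal protein genes had a median of -0.05 over 77 tested (0.07 under quantile normalization), with 2 above and 2 below 0 at an unadjusted p under 0.05.

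Glial and vascular lists held no call. Homeostatic astrocyte genes stood at -0.23 over 12 tested and reactive ones at 0.02 over 18 (0.28 with slide as a block). Glutamine synthetase, Glul, was 3.11, 3.32 and 3.46 in TBI and 3.71, 3.61 and 3.96 after imipramine (0.47 ± 0.142, adjusted p = 0.16), without overlap, and vimentin, Vim, stood at 0.65 (adjusted p = 0.31). Oligodendrocyte genes stood at 0.04 over 15 (0.34 with slide as a block), with the myelin regulator gene Myrf at an unadjusted p under 0.05, and precursors at 0.21 over 4, with Gpr17, a receptor of differentiating precursors, at 0.59. Endothelial genes stood at -0.1 over 14, with the junction genes Ocln at 0.62 and Cdh5 at -0.51, and pericytes and smooth muscle at 0.16 over 9.

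The other pathways held no calls. Neurotrophic factors and receptors stood at -0.11 over 12 tested, CREB, AKT and MAP kinases at 0.04 over 22, immediate early genes at -0.07 over 20 (0.44 with slide as a block) and glucocorticoid-responsive genes at -0.06 over 13. Cholesterol synthesis genes, which cationic amphiphilic drugs such as imipramine are known to induce in culture, stood at -0.01 over 27, with 1 at an unadjusted p under 0.05. The lysosomal list stood at 0.02 over 43, with Lamp2 at 0.39 and Gaa and Pla2g15, the lysosomal phospholipase that such drugs inhibit, at -0.35 and -0.32. Clock genes stood at -0.23 over 12, with Per2 at -0.29, Tef at -0.3 and Ciart at 0.64. Heat shock genes stood at -0.07 over 17, ER stress genes at -0.02 over 12, antioxidant genes at -0.04 over 25, calpains, caspases and the Bcl-2 family at 0.01 over 26, axon growth genes at -0.12 over 19, the Notch pathway at -0.06 over 17 and insulin-like growth factors at 0 over 11 (0.22 with slide as a block), with Igf1 at -0.37 (adjusted p = 0.23).

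Set against the other antidepressants in the same fit, imipramine arrays differed from Zoloft arrays at 54 probes (0.312%) and from Prozac arrays at 0 (0%), with 4125 (23.8%) and 1601 (9.24%) at an unadjusted p under 0.05. Both comparisons share the imipramine arrays with the one above, and the Prozac group lay on both slides. Of the 167 genes named by rule, 1 passed against Zoloft, Map3k13, and 0 against Prozac, where limma gave 47 an unadjusted p under 0.05.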

How the data were processed

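Total RNA of the whole hippocampus was amplified, labelled with Cy3 and hybridised to 1-colour Agilent arrays, 1 rat each. The authors deposited scanner files of Agilent Feature Extraction (11.5.1.1) with spot intensity, background-subtracted and detrended within an array and not scaled between arrays, and flags of 0 or 1 per spot per the file headers (unit: other). They also deposited a table of intensity scaled to the 75th percentile of probes above background. Groups were taken from titles. Depth does not apply, and 3 arrays a group limit the precision.

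Spots flagged as outliers were dropped and those of a probe averaged. A probe was above background on an array when more than 0.5 of its spots were. Signals were divided by the array's 75th percentile over such probes and taken as log2. A probe was kept where all arrays of any 1 group had it above background, which left 17322 of 30367 (11902 with 1 gene symbol), and each array was centred on their median. limma 3.58.1 in R 4.3.3 (lmFit, eBayes) was fitted to 14 arrays in 5 groups, with Benjamini-Hochberg adjustment over all kept probes and a threshold of 0.05. The kept probe with the highest mean stood for a gene in lists. Probes were named through the platform's annotation and RefSeq, and promoters came from RefSeq (GRCr8). The normexp alternative used median signals of spot and background. The fit was tested on simulated data.

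Named genes were those past the threshold with the largest differences, above background on all 6 arrays and without overlap, filled to 10 in each direction from an unadjusted p under 0.01, then called genes above background in 1 group only, called members of each list or the 3 with the smallest p, choroid plexus genes and drug targets, and genes of earlier work. Other list members in the text were chosen after their values were seen. The comparison, 47 gene lists and tests were chosen with earlier results of these data known. Alternatives covered scaling, centring, background, filters, slide, replicate block, samples in the fit, each array left out, and the methods' t-test. MicroRNA arrays were not used here.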

Additional observations from a re-analysis of the deposited data

How the results depend on the processing

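Signs and calls are relative to the median probe. Without centring, 494 probes were past the threshold (489 higher and 5 lower) in place of 51, 9 list genes in place of 2 and 11 named genes against Zoloft in place of 1, and the differences of Stmn2 (0.04) and Slc6a2 (0.06) turned positive. Under quantile normalization there were 56 probes, 1 list gene and 5 named genes against Zoloft, and with the groups' shift subtracted 0 against Zoloft. The normexp background gave 141 probes (109 higher and 32 lower), 6 named genes against Zoloft and -0.18 for Chrm1. Its lower bounds were 1.19-fold for Ppp1r14bl, 1.66 for Sptb, 1.31 for Dpep2 and 1.28 for Klra17. The same calculation gave 1.65-fold for Pde11a. With no filter on dim probes there were 27 probes, 0 list genes and 0 against Zoloft, and where a probe had to be above background on each of the 14 arrays, 90 probes and 6 against Zoloft, with no bounds. In the fit of 6 arrays 207 probes passed. Without the sham arrays 1 list gene and 2 against Zoloft passed, and with the mean over a gene's probes 0 list genes. The methods' t-test with a fold limit of 1.2 called 1731 probes unadjusted and 19 after Benjamini-Hochberg. Of the alternatives chosen after seeing the data, cyclic loess gave 1 list gene and 4 against Zoloft, and without Prozac replicate 1 there were 348 probes (315 higher and 33 lower), 6 list genes and 0 against Zoloft, the 51 probes all among the 348.

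With slide as a block, 5 probes, 0 list genes and 0 named genes against Zoloft passed, and differences turned in Cox6c-ps1 (-0.17), Il1b (-0.44), Mmp12 (-0.98), Bcl2a1 (-0.28), Foxm1 (-0.05), Lyz2 (-0.16), Slc6a2 (0.42), Lyve1 (0.51), RT1-A2 (0.75), C1qa (0.14), Sst (-0.11) and Cox7c (-0.49). As a random block, slide left 43 probes. The labels state no pairing of rats by replicate number. Same-numbered arrays deviated together at 0.23, -0.044 and 0.15, and differently numbered ones at -0.202 to 0.059. With the replicate block, 30 probes, 0 list genes and 0 against Zoloft passed. With each array left out in turn, the probes ran from 0 to 11, list genes from 0 to 1, named genes against Zoloft from 0 to 9 and against Prozac from 0 to 1. The bounds ran from 1.68 to 2.49-fold for Ppp1r14bl, 2.29 to 4.88 for Sptb, 2.14 to 3.11 for Dpep2 and 1.75 to 2.62 for Klra17. The same calculation, which took in TBI arrays not above background, gave 2.56 to 3.24-fold for Pde11a and 1.18 to 1.72 for Il1a. Lyve1 ran from -0.65 to 0.09 and RT1-A2 from -0.8 to 0.3. Where limma gave 0, an unadjusted p under 0.05 was held by 33 to 145 list genes, by 45 to 62 named genes against Zoloft and by 29 to 51 against Prozac. No called gene reversed: Abhd16a passed in 20 of 22 alternatives, Msr1 in 12 of 21, Pdyn in 10 of 22 and Rchy1 and Spef1 in 9 of 22. Over the genes named here and their alternatives, 2426 values kept their direction and side of the threshold, 26 gained it, 90 lost it and 17 reversed. Of the medians of lists, 1027 stayed within the spread between replicates and 53 moved. Dim genes such as Ccr1 and Il1a lie near background, where 3 arrays a group limit what can be seen. The cause of these changes was not tested.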
